A study of Mus musculus with 2 samples.

Results

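The MHC class I presentation genes are the 10 genes H2-K1, H2-D1, B2m, Tap1, Tap2, Tapbp, Psmb8, Psmb9, Psme1 and Nlrc5. They were listed by name with no measured value in the rule, although earlier results of these data were known when they were chosen, and all 10 are among the 19465 genes of the count matrices. They were followed from the edge to the core of 2 melanoma sections, in spots dense in melanoma transcripts with and without T cell transcripts, in macrophage-rich and stroma spots, and against genes induced by interferon.

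The sections were profiled with Visium CytAssist, which reads pairs of gene-specific probes on a grid of barcoded spots, so each spot is a small region that can hold several cells. The WT section came from a tumour in a mouse given as wild-type in the genotype label and as Csnk2bfl/fl in the title, with floxed Csnk2b alleles and no Cre named. The KO section came from a tumour in a Foxp3-Cre × CK2b-fl/fl mouse, in which Cre driven by Foxp3, the transcription factor of regulatory T cells, removes Csnk2b, the regulatory subunit of casein kinase 2, from those cells. Both tumours grew from inoculated cells of B16.F10, a mouse melanoma line, in untreated hosts aged 8 to 16 weeks, and were taken at day 15, embedded in paraffin and cut at 10 µm. The melanoma cells and every host cell outside the Foxp3 lineage keep Csnk2b in both sections. There was 1 section per genotype, so genotype, animal and section cannot be told apart, and no test between genotypes was possible.

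There were 3066 spots and 88735936 UMIs (unique molecular identifiers, which count captured molecules) in WT tissue, against 2746 spots and 94422680 UMIs in KO tissue. The median spot held 26818.5 UMIs in WT tissue and 36769 in KO tissue. Csnk2b stood at 392 CPM (its UMIs per 1000000 of the total) in both, which checks little because most cells keep the gene. The 13 melanocytic markers measured summed to 43741 CPM in WT tissue and 50028 CPM in KO tissue, so the tissue carried the transcripts of its label. The 4 Y-linked genes checked gave 0 UMIs in WT tissue and 1477 in KO tissue, a difference between the hosts or tumours that cannot be told apart from genotype. Of the 10 genes, the one with the fewest counts was Psmb9, with 2066 and 1923 UMIs, against a median of 19 and 42 UMIs for 15 genes of other organs. The sections shared 2138 spot barcodes, which name positions of the same grid design.

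MHC class I molecules show peptides from inside the cell to CD8 T cells. The proteasome cuts proteins, the TAP transporter moves peptides into the endoplasmic reticulum, and tapasin helps load them on a heavy chain paired with beta-2-microglobulin. Interferon gamma raises nearly every step, in part through the transactivator NLRC5, and B16 melanoma cells are known for low class I expression at rest. In the order of their roles, Psmb8 and Psmb9 encode catalytic subunits of the immunoproteasome, Psme1 encodes the alpha subunit of its PA28 activator, Tap1 and Tap2 encode the transporter, Tapbp encodes tapasin, H2-K1, H2-D1 and B2m encode the molecule itself, and Nlrc5 encodes the transactivator. The probes of H2-K1 and H2-D1 read genes with near-identical relatives, so their counts are uncertain where a probe also fits a relative. In these spots, fewer cells of a type and less RNA per cell cannot be told apart.

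Of the 10 genes, 7 lie on chromosome 17, in the major histocompatibility region. RefSeq sequences from 250 bases before to 50 after the gene start, on build GRCm38.p6, were at hand for 8 of the 10. They were searched for interferon-linked motifs and for elements of class I promoters. The windows of Tap1, Tapbp and Psmb9 held no interferon-linked match. Capitals mark matches, on either strand, to GAANNGAAA or its form with 1 more A in the first block (the interferon-stimulated response element), to TTCNNNGAA (the gamma-activated site), to TGACG (found in cyclic AMP response elements), to CCAAT (the box bound by nuclear factor Y) and to a palindromic NF-kappa-B site, the first run of capitals in H2-K1 and H2-D1. The stretches of H2-K1 (chr17:34000354-34000468, minus strand), H2-D1 (chr17:35262913-35263027, plus strand) and B2m (chr2:122147538-122147643, plus strand) each end before the start of the transcript used. The H2-K1 stretch lies inside the RefSeq gene record, which has another start further upstream.
H2-K1: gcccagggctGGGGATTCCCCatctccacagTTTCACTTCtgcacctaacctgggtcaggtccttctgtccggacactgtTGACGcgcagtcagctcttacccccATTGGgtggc
H2-D1: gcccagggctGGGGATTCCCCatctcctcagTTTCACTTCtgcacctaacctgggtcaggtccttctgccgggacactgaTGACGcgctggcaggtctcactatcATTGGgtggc
B2m: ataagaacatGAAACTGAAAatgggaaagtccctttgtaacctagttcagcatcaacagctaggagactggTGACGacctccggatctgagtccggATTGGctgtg
The H2-K1 and H2-D1 stretches had the same base at 104 of 115 positions, with a longest shared run of 47 bases. In H2-K1, H2-D1 and B2m alike, an interferon-stimulated match is followed by TGACG and then by an inverted CCAAT.

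Tap1 and Psmb9 are read in opposite directions from starts 225 bases apart, so 1 stretch (chr17:34187331-34187555, plus strand as Tap1 is read) lies before both.
Tap1 and Psmb9: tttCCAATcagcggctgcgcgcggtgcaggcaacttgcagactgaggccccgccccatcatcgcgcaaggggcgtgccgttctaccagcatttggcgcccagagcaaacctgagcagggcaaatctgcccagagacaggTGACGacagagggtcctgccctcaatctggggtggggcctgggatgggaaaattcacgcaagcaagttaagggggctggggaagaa
Psmb8 (chr17:34198088-34198116, plus strand) held the gamma-activated match, and Psme1 (chr14:55578496-55578524, plus strand) held 2 overlapping interferon-stimulated matches just after its start, printed as 1 run of capitals.
Psmb8: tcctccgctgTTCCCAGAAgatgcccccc
Psme1: gctgtgcTTTCGCTTTCCCTTCccgctgc
An interferon-stimulated match was in 4 of the 8 windows (H2-K1, H2-D1, B2m and Psme1), against 10.4% of 32851 RefSeq windows of the same length. The gamma-activated site was in 1 of 8 against 8.3%, TGACG in 5 of 8 against 20.8%, and CCAAT in 6 of 8 against 37.4%. These 8 windows are not separate. Tap1 and Psmb9 share 1 TGACG and 1 CCAAT, each counted for both genes, and the H2-K1 and H2-D1 stretches are much alike. The NF-kappa-B site, searched as 1 exact string among elements of class I promoters, was in H2-K1 and H2-D1. Both are among the 10 of all windows that held it (0.0304%), so the match was no independent find. A match is a description of the letters, and Tap2 and Nlrc5 were the genes not matched to a window.

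Spots were put in classes by the share of their UMIs from marker lists that hold none of the 10 genes, with limits set over both sections. Stroma spots had at least 0.724% of UMIs from fibroblast and matrix genes (the top 25% of spots). Macrophage-rich spots were outside stroma and had at least 0.159% from macrophage genes (the top 25%). Melanoma-dense spots were neither and had at least 4.87% from melanocytic genes (the median). The WT section had 1042 melanoma-dense, 73 macrophage-rich and 952 stroma spots, and the KO section had 1445, 103 and 314, with 604 and 528 other spots. Spots under 5000 UMIs, 395 in WT tissue and 356 in KO tissue, were left out of the classes.

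**Figure D1:**
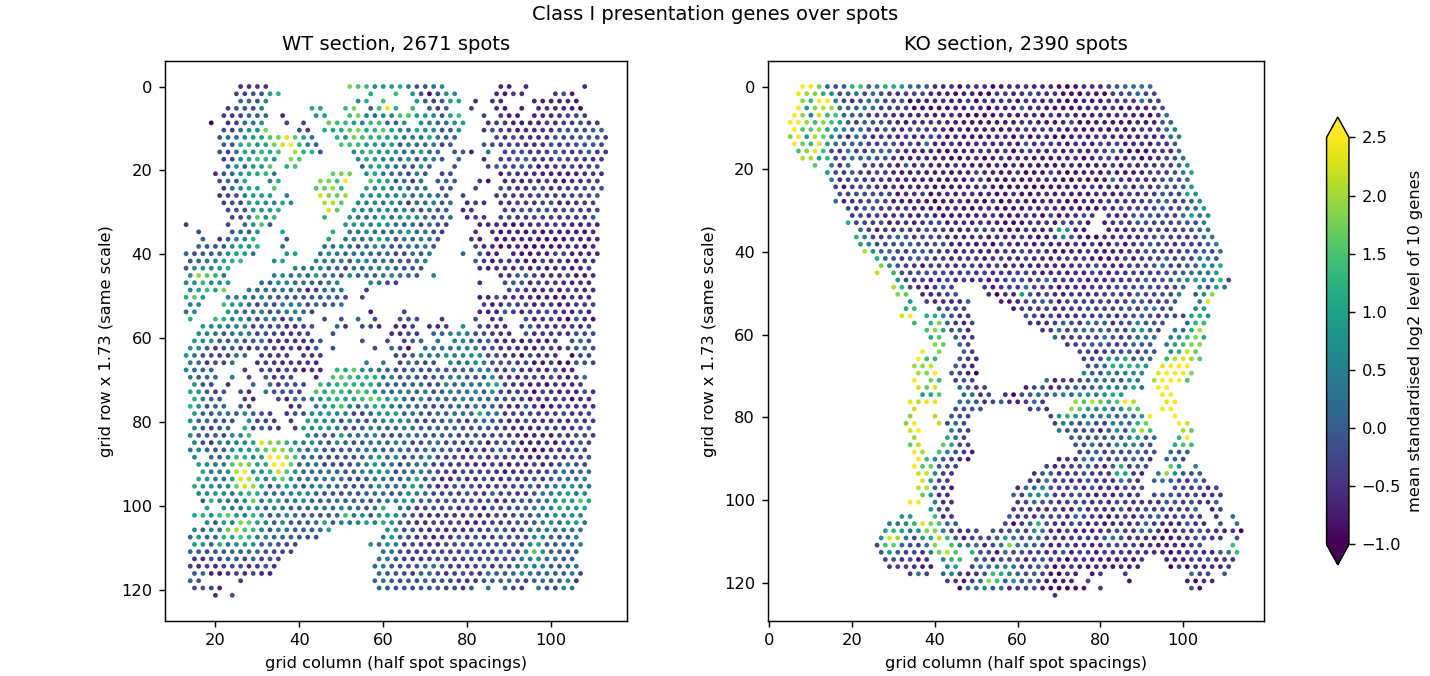
Position of each spot with at least 5000 UMIs in the WT (2671 spots) and KO (2390 spots) sections, with grid column and scaled grid row on the axes and colour giving the mean standardised log2 level of the 10 genes over both sections. High spots line the left and right margins of the KO section around a low interior, while in WT tissue they lie in patches and the right side is low.

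The 10 genes were low in melanoma-dense spots and high in stroma in both sections, as the map of the mean standardised level shows. The median spot score was -0.39 in WT and -0.50 in KO melanoma-dense spots, 0.26 and 0.49 in macrophage-rich spots, and 0.55 and 1.43 in stroma. The score has no unit beyond the spread between spots, and higher means more of the 10 transcripts per UMI. Stroma spots were the shallowest class, with a median of 16584.5 UMIs in WT tissue and 9941 in KO tissue.

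The immunoproteasome genes and the heavy chains set stroma apart most. Psmb8 stood at 14.9 CPM in WT melanoma-dense spots and at 157 CPM in WT stroma, and at 19.0 and 274 CPM in KO tissue. H2-K1 stood at 21.9 and 177 CPM in WT tissue and at 27.9 and 590.3 CPM in KO tissue. Their stroma over melanoma-dense ratios were 10.5 (95% interval 9.65 to 11.5) and 8.05 (7.49 to 8.67) in WT tissue, and 14.4 (13.3 to 15.6) and 21.1 (19.9 to 22.4) in KO tissue. These and all later intervals are exact for counting error alone and say nothing about other animals. All 4 quadrants of each section gave ratios above 1 for both genes, from 3.91 to 9.51 for H2-K1 in WT tissue and from 10.9 to 27.7 in KO tissue.

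The transporter and loading genes differed less between these classes. Tap1 went from 21.2 to 62.7 CPM in WT tissue and from 25.5 to 116 CPM in KO tissue. B2m, the light chain, went from 2096 to 3187 CPM and from 1799 to 5095 CPM. Psme1, the activator subunit, moved least in both sections, from 159.5 to 205 CPM and from 153.5 to 227 CPM.

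At least 1.5-fold higher in stroma than in melanoma-dense spots were 9 of the 10 genes in each section, all but Psme1. Over all genes tested the share was 22.4% in WT tissue and 21.6% in KO tissue. The median of the 10 log2 ratios was 1.46 in WT tissue and 2.17 in KO tissue, beside -0.21 and -0.13 over all genes. Stroma also carried more immune transcripts: macrophage genes summed to 4230 CPM against 413 CPM in WT melanoma-dense spots and to 7333 against 265 CPM in KO tissue, and T cell genes to 86.9 against 12.2 and 599 against 37.8 CPM. The macrophage difference was in part set by the class rule. Melanoma-dense spots had to lie below the macrophage limit, and stroma spots did not. None of the 16 macrophage or 14 T cell genes was at 0 in melanoma-dense spots or stroma of either section. Which cells of these spots carried the class I transcripts was not tested.

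Macrophage-rich spots lay between melanoma-dense spots and stroma for H2-K1, H2-D1, Tap1, Tapbp, Psmb8 and Psmb9 in both sections, while B2m, Tap2, Psme1 and Nlrc5 were highest in macrophage-rich spots of the WT section. H2-D1 stood at 688 CPM in WT and 671 CPM in KO macrophage-rich spots, against 314 and 206 CPM in melanoma-dense spots. Psmb9 stood at 49.5 and 46.7 CPM, against 9.32 and 12.04 CPM. For Psmb9 the macrophage-rich over melanoma-dense ratio was 5.31 (4.31 to 6.50) in WT tissue and 3.88 (3.30 to 4.54) in KO tissue. In the WT section the macrophage-rich and stroma levels of Tap1, Tap2, Psmb9 and Nlrc5 had overlapping counting intervals, so the order of these classes is uncertain for them.

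Again 9 of the 10 genes were at least 1.5-fold higher in macrophage-rich than in melanoma-dense spots in each section, against 9.93% of all genes in WT tissue and 15.3% in KO tissue. Psme1 was the exception, at 1.49 (1.37 to 1.62) and 1.23 (1.15 to 1.32). The median log2 ratio was 1.29 in WT tissue and 1.76 in KO tissue, beside -0.04 and 0.02 over all genes. Every quadrant ratio was above 1 for all 10 genes in WT tissue and for 9 in KO tissue, where Psme1 had 3 of 4. Macrophage genes defined this class, and MHC class II genes, which mark antigen-presenting cells, were 4.24-fold and 13.9-fold higher in it by their median.

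**Figure D2:**
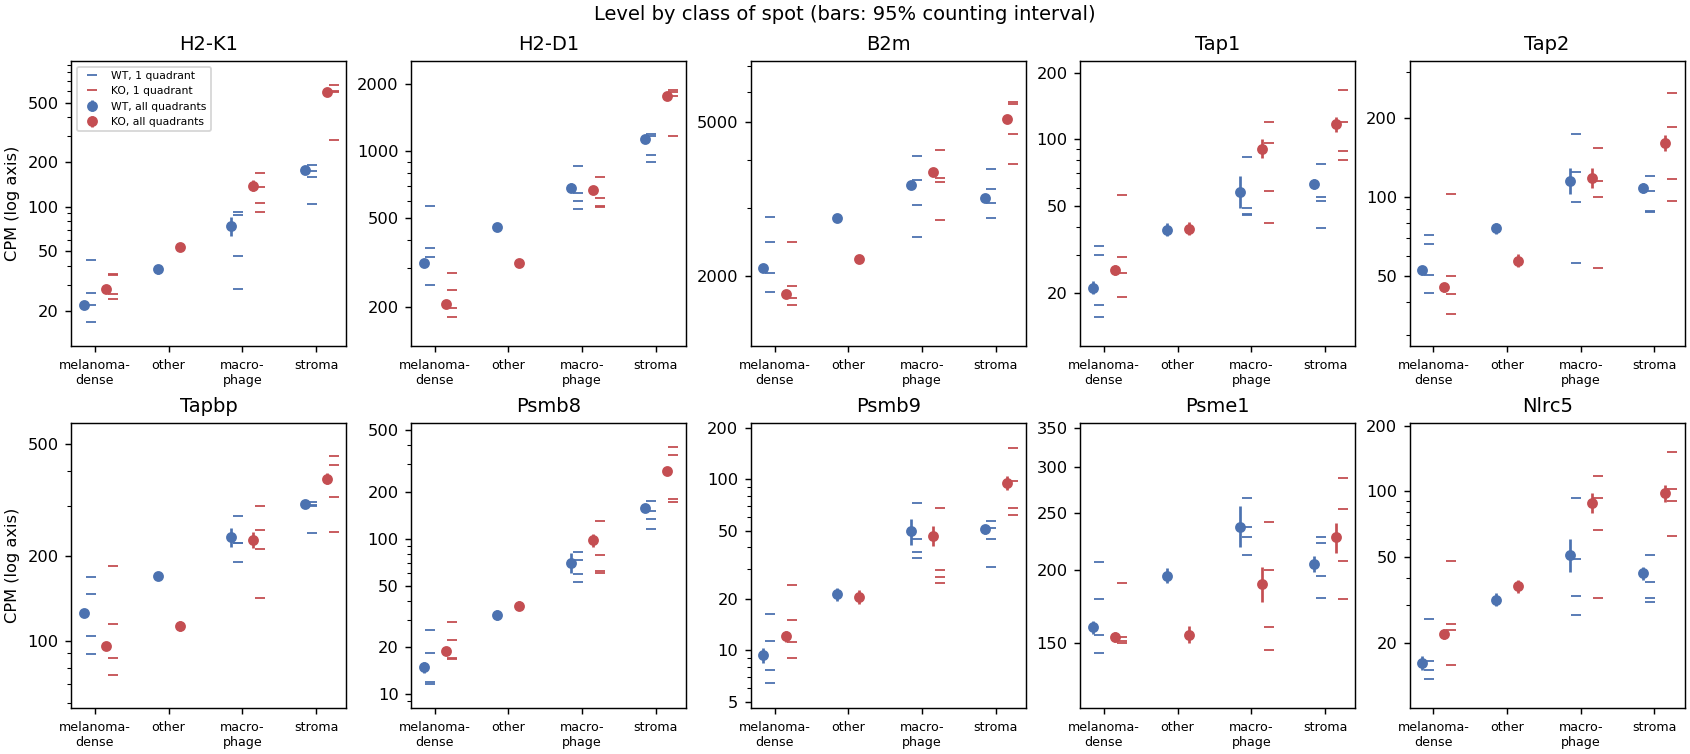
Level of each gene in CPM on a log axis by class of spot, with the WT section in blue and the KO section in red. Points are whole classes with 95% counting intervals and short lines are single quadrants of a section, and stroma spots are the highest class for H2-K1, H2-D1, Tapbp and Psmb8 in both sections.

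The distance from the tissue edge was counted in steps on the hexagonal grid to the nearest position without tissue or outside the frame. The edge was 1 to 2 steps and the core 12 or more, with 1364 and 131 spots in WT tissue and 761 and 409 in KO tissue. In the KO section all 10 genes were lower in the core than at the edge, while in WT tissue 8 of the 10 differed by less than 1.5-fold between edge and core.

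H2-K1 in KO tissue stood at 168 CPM at 1 to 2 steps, 73.4 at 3 to 4, 48.7 at 5 to 7, 30.5 at 8 to 11 and 20.5 CPM at 12 or more. In the WT section it stood at 70.8, 66.3, 58.5, 54.5 and 41.6 CPM over the same bands. Every band was below the one outside it in both sections, but the spans differed: edge over core was 8.21 (7.30 to 9.24) in KO and 1.70 (1.46 to 1.99) in WT tissue.

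H2-D1 in KO tissue went from 646 CPM at the edge to 154 CPM in the core, and in WT tissue from 575 to 474 CPM. Psmb8 went from 88.4 to 10.97 CPM in KO and from 61.5 to 36.7 CPM in WT tissue. For H2-D1 the levels of the sections lay closer together at the edge than in the core. B2m ran in opposite directions, from 2894 to 1494 CPM in KO tissue and from 2512 to 2774 CPM in WT tissue, with ratios of 1.94 (1.91 to 1.97) and 0.906 (0.889 to 0.923).

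In the KO section 9 of the 10 genes were at least 1.5-fold higher at the edge than in the core, against 14.7% of all genes. The ratio for Psme1 was 1.21 (1.15 to 1.27). In the WT section H2-K1 and Psmb8 passed 1.5-fold, 2 of the 10, against 12.4% of all genes. The median log2 ratio of the 10 was 1.81 in KO and 0.14 in WT tissue, beside 0.03 and 0.00 over all genes. All 4 KO quadrants gave ratios above 1 for all 10 genes, and only 2 WT quadrants had enough core spots for a value. In the WT quadrant with 119 of the 131 core spots, Psmb8 had a ratio of 0.772 and H2-K1 1.10, against 2.24 and 1.91 in the quadrant with 12. The WT core was also taken from 8 steps, a setting chosen after the data were seen. None of the 10 then passed 1.5-fold, against 10.9% of all genes. With equal weight for each spot 6 did, from 1.54 for Tapbp to 2.98 for H2-K1. No share over all genes was computed with equal weight.

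The spots at the edge were a different mixture from those in the core. In the KO section 28.4% of edge spots were stroma and 8.41% macrophage-rich, against none in the core. In the WT section these shares were 35.0% and 1.69% at the edge and 6.11% and 9.92% in the core. The profile was therefore also read among melanoma-dense spots alone, where the WT core had to begin at 8 steps to hold 50 spots.

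**Figure D3:**
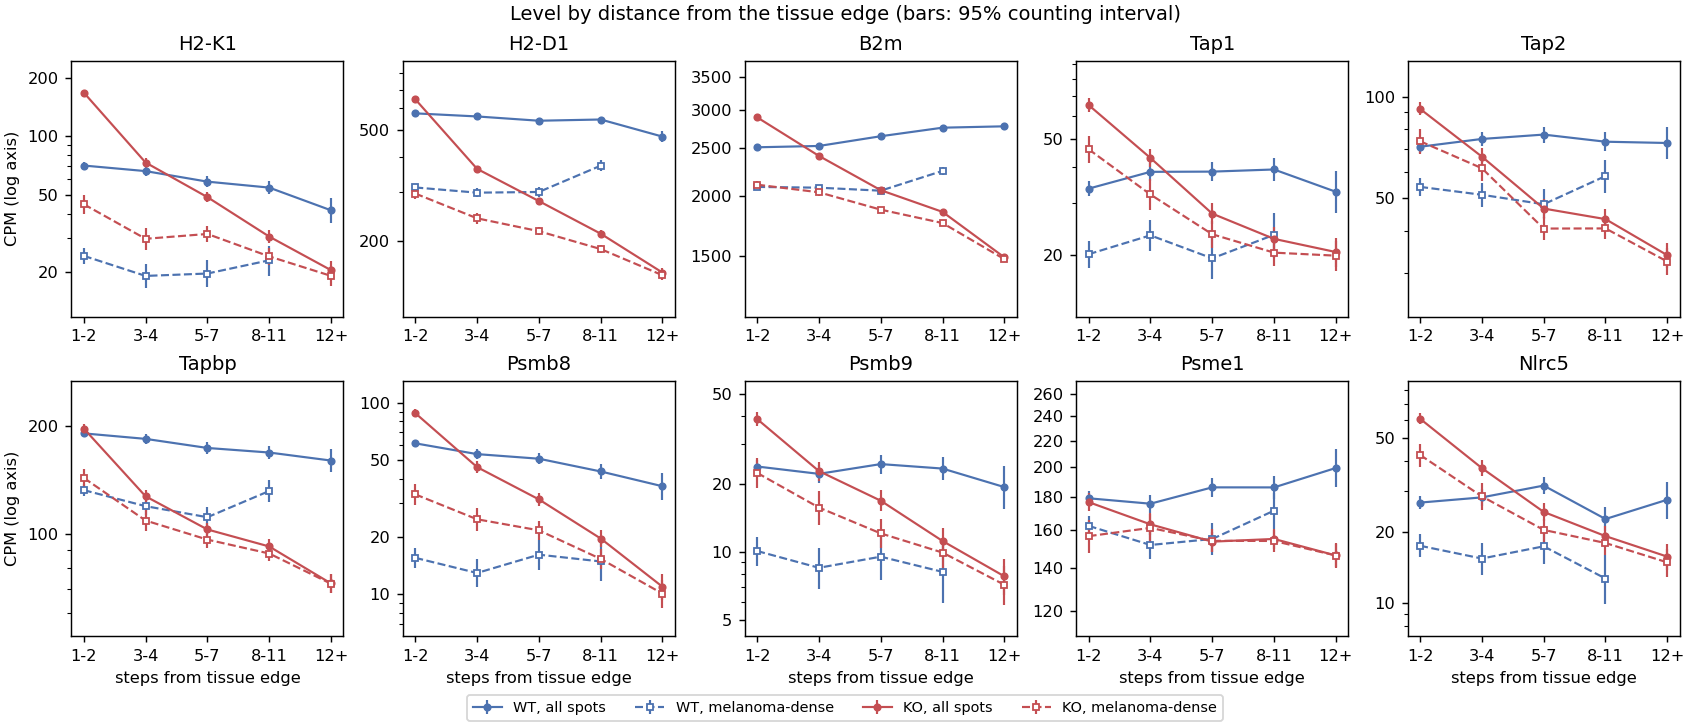
Level of each gene in CPM on a log axis by band of steps from the tissue edge, for all spots (solid lines) and melanoma-dense spots (dashed lines) of the WT (blue) and KO (red) sections, with 95% counting intervals; the innermost WT melanoma-dense band holds 8 or more steps. KO lines go down from left to right for most genes; WT lines of all spots go down less, H2-K1 from 70.8 to 41.6 CPM, or up, B2m from 2512 to 2774 CPM.

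Within melanoma-dense spots the pooled KO gradient was smaller but still there, and pooled over WT tissue no gene reached 1.5-fold, though both differed between quadrants. Nlrc5 in KO melanoma-dense spots stood at 42.6, 28.4, 20.4, 18.0 and 14.9 CPM from the outermost to the innermost band. Tap1 stood at 46.0, 32.2, 23.5, 20.3 and 19.8 CPM, and H2-D1 at 296, 242, 217, 187 and 151 CPM. For these genes each band was at or below the one outside it.

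In WT melanoma-dense spots Nlrc5 stood at 17.5, 15.4, 17.4 and 12.7 CPM, and H2-D1 at 312, 299, 300.3 and 373 CPM over 4 bands. H2-D1 was thus highest in the innermost WT band and lowest in the innermost KO band. Its edge over core ratios among melanoma-dense spots were 0.835 (0.794 to 0.879) and 1.96 (1.85 to 2.09). The WT direction of H2-D1 was not stable: the ratio was 1.35 in the quadrant that holds 129 of the 155 WT core spots, and 1.09 where melanoma-dense meant the top 25% of melanocytic shares.

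At least 1.5-fold higher at the edge of the KO melanoma-dense spots were 8 of the 10 genes, against 4.08% of all genes, with 212 edge and 349 core spots. The ratio was highest for Psmb8 at 3.30 (2.67 to 4.08) and Psmb9 at 3.13 (2.43 to 4.05), and B2m at 1.42 and Psme1 at 1.07 did not pass. In WT tissue none of the 10 passed, against 1.46% of all genes, with 486 and 155 spots, and the highest ratio was that of Nlrc5 at 1.38 (1.06 to 1.81). The median log2 ratio was 1.199 in KO and -0.03 in WT tissue.

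Single quadrants did not all follow their section. In the WT quadrant with 69 edge and 129 core spots all 10 ratios were above 1, with H2-K1 at 2.37, Psmb8 at 2.30, Psmb9 at 3.39 and Nlrc5 at 3.31, and B2m at 1.54. In the other WT quadrant with both, of 52 and 26 spots, they ran from 0.799 for B2m to 1.11 for Tap2. In the KO quadrant that holds 133 of the 212 edge spots, with 37 core spots, Psmb9 was at 1.01, Psmb8 at 1.18 and B2m at 0.925, while in the KO quadrant with 34 and 169 spots they were at 4.86, 5.18 and 1.732. An edge over core gradient in melanoma-dense spots was seen in parts of both sections, and the pooled ratios combine such quadrants.

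Immune transcripts moved with the pooled KO gradient even inside this class. Macrophage genes summed to 457 CPM at the edge of KO melanoma-dense spots and to 120.3 CPM in their core, T cell genes to 59.2 and 27.0 CPM, and interferon gamma induced genes to 1107 and 547 CPM. In the WT section the macrophage sums were 411 and 465 CPM. Melanocytic genes hardly differed in either section, at 55426 against 57712 CPM in KO and 56180 against 53026 CPM in WT tissue.

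Among KO melanoma-dense spots whose macrophage share lay below the class median of the KO section, with the core from 8 steps, the gradient was no longer seen. This choice was made after the data were seen, and it left 55 edge and 498 core spots. With the core from 8 steps alone, 8 of the 10 genes passed 1.5-fold, against 4.6% of all genes. With the macrophage limit none of the 10 genes was 1.5-fold higher at the edge, against 2.3%, and the median log2 ratio was 0.01. H2-D1 stood at 155 CPM at the edge and 142 CPM in the core, a ratio of 1.09 (0.958 to 1.24), and B2m at 1248 and 1440.4 CPM. Psmb8 turned to 0.493 (0.210 to 0.990) on 8 edge UMIs. Macrophage genes then summed to 70.9 and 73.6 CPM and interferon gamma induced genes to 445 and 477 CPM. T cell genes summed to 20.5 and 21.2 CPM, fibroblast and matrix genes to 187 and 190 CPM, and MHC class II genes to 67.4 and 70.0 CPM. None of these lists then differed in the direction of the gradient, and their separate parts were not tested. WT spots below the median of the WT section held macrophage genes at 183 CPM at the edge and 219 CPM in the core. In them Tap1 had a ratio of 0.662 (0.476 to 0.934) and Nlrc5, on 12 core UMIs, 2.37 (1.31 to 4.71).

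T cell spots were next compared with the other melanoma-dense spots. To give each spot the same chance of a T cell transcript, spots were thinned at random to 10000 UMIs, and a T cell spot kept at least 1 UMI of 14 T cell genes such as Cd3e and Trac. There were 108 T cell spots and 925 without in WT tissue, and 381 and 1041 in KO tissue. All 10 genes were higher in T cell spots in both sections.

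Tap1 stood at 19.5 CPM in WT spots with 0 thinned T cell UMIs, 35.2 CPM with 1 and 50.4 CPM with 2 or more. In the KO section it stood at 19.9, 35.1 and 50.3 CPM. The steps were alike in both sections, although the highest WT group holds 11 spots and the KO one 91. Nlrc5 stood at 15.1, 25.5 and 36.6 CPM in WT tissue and at 17.6, 28.9 and 45.3 CPM in KO tissue. B2m stood at 2050.2, 2462 and 2838 CPM and at 1677, 2001 and 2368 CPM.

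The T cell spot over no T cell ratio of Tap1 was 1.89 (1.58 to 2.25) in WT tissue and 1.96 (1.77 to 2.17) in KO tissue. Those of Psmb9 were 1.84 (1.39 to 2.40) and 1.93 (1.67 to 2.24), and those of Psme1 1.13 (1.04 to 1.21) and 1.10 (1.05 to 1.15). For each of the 10 genes the counting intervals of the sections overlapped. At least 1.5-fold higher were H2-K1, Tap1, Psmb8, Psmb9 and Nlrc5 in WT tissue, 5 of the 10 against 2.9% of all genes, and these and Tap2 in KO tissue, 6 of the 10 against 3.2%. Of the 4 genes with an interferon-stimulated match in their window, H2-K1 was past 1.5-fold and H2-D1, B2m and Psme1 were not.

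All 4 quadrants had ratios above 1 for 7 of the 10 genes in WT tissue and for all 10 in KO tissue. The median log2 ratio was 0.58 in WT tissue and 0.67 in KO tissue, beside 0.00 and 0.01 over all genes. In WT spots at least 8 steps from an edge, a setting chosen after the data were seen, only Psmb9 passed 1.5-fold, against 5.39% of all genes, and with full counts and no thinning 2 of the 10 did, against 1.29%.

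Macrophage and matrix transcripts were also higher in T cell spots. Macrophage genes summed to 583 against 394 CPM in WT tissue and to 345 against 232 CPM in KO tissue, and fibroblast and matrix genes to 915 against 422 and to 417 against 263 CPM. MHC class II genes summed to 164 against 106 and to 194 against 114 CPM. Among spots with a macrophage share below the class median, T cell genes stood at 37.0 against 5.63 CPM in the WT (37 and 479 spots) and 53.8 against 15.0 CPM in KO tissue (135 and 576 spots). That difference was fixed by the split, which used the same T cell genes. The macrophage median was taken within each section, so low spots were not alike between sections. Macrophage genes summed in them to 211 and 197 CPM in WT tissue and to 80.5 and 74.7 CPM in KO tissue.

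In these macrophage-low spots none of the 10 class I genes reached 1.5-fold in either section, against 1.47% and 0.439% of all genes. All 10 ratios stayed above 1 in KO tissue, the highest that of Psmb9 at 1.47 (1.06 to 2.02) on 55 T cell spot UMIs, with Tapbp at 1.14 (1.03 to 1.26). Tap1 had ratios of 1.30 (0.863 to 1.89) and 1.14 (0.918 to 1.41), and H2-D1 had 1.08 (0.976 to 1.198) and 1.06 (0.982 to 1.13). B2m, with the most counts, had 1.0004 (0.962 to 1.04) in WT tissue and 1.12 (1.10 to 1.15) in KO tissue. The median log2 ratio was 0.09 and 0.18. Interferon gamma induced genes summed there to 479 CPM with and 483 CPM without T cells in the WT section, and to 570.3 and 443 CPM in the KO section. Fibroblast and matrix genes summed to 229 and 249 CPM in WT tissue and to 211 and 182 CPM in KO tissue. MHC class II genes summed to 79.3 and 78.1 CPM in WT tissue and to 72.5 and 70.6 CPM in KO tissue. Ratios among spots at or above the macrophage median, chosen after the data were seen, passed 1.5-fold for 5 genes in WT tissue and 6 in KO tissue, against 2.1% and 2.24% of all genes.

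**Figure D4:**
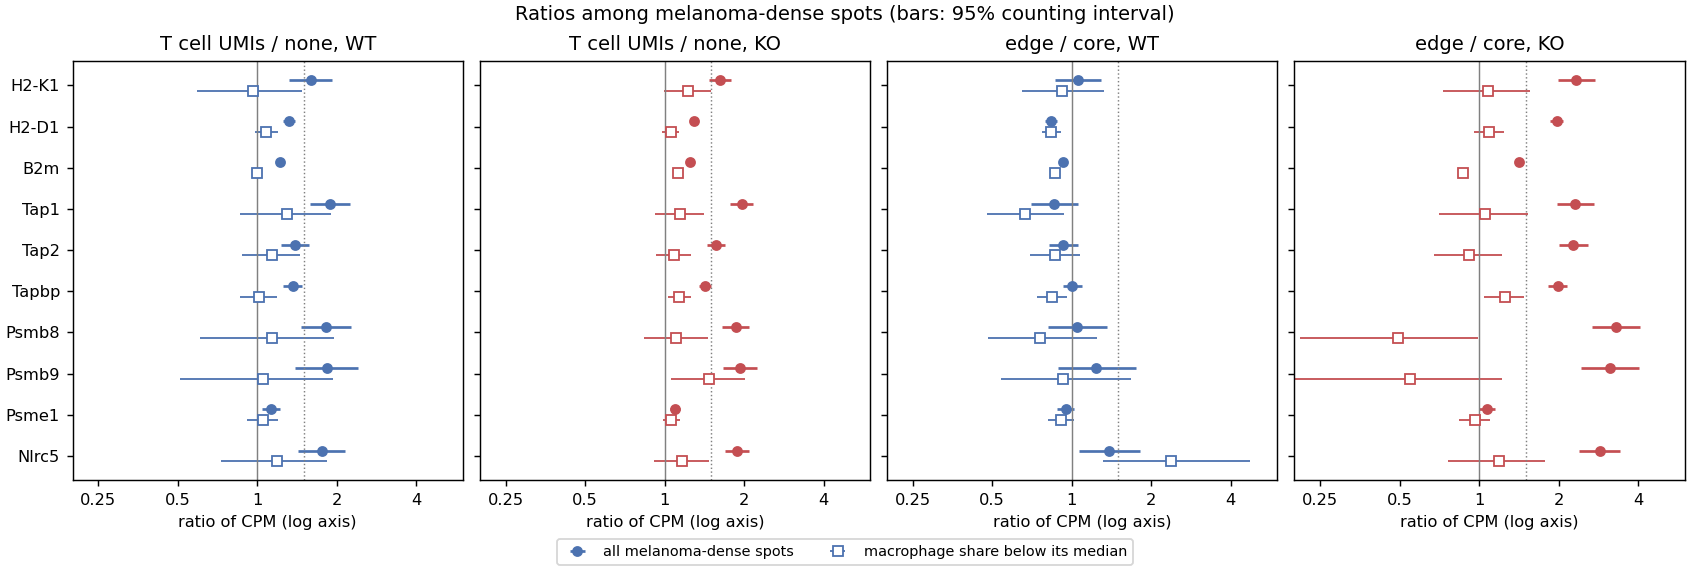
Ratio of CPM on a log axis for each gene among melanoma-dense spots, T cell spots over spots without and edge over core, in the WT (blue) and KO (red) sections. Filled points are all melanoma-dense spots and open squares those with a macrophage share below the class median of their own section. Bars are 95% counting intervals, the dotted line is 1.5-fold, and the open squares of the KO edge over core panel run from 0.493 for Psmb8 to 1.249 for Tapbp.

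Between the genotypes the direction depended on the class of spot. Over whole sections 7 of the 10 genes had KO over WT ratios below 1 and 3 had ratios above 1. H2-D1 stood at 556 CPM in WT tissue and 345 CPM in KO tissue, a KO over WT ratio of 0.621 (0.613 to 0.630), and Tapbp at 181 and 122 CPM, 0.672 (0.656 to 0.688). H2-K1 stood at 63.6 and 72.5 CPM and Nlrc5 at 27.5 and 32.7 CPM, ratios of 1.14 (1.10 to 1.18) and 1.19 (1.13 to 1.26). H2-K1 and H2-D1, whose printed stretches share 104 of 115 bases, thus lay on opposite sides of 1. Without the spots at 1 to 2 steps all 10 ratios were below 1, from 0.470 for H2-D1 to 0.873 for Nlrc5, with H2-K1 at 0.742, so that split was lost.

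For H2-D1 and H2-K1 the quadrants of 1 section spread wider than the sections differed. For H2-D1 they ran from 328 to 919 CPM in WT tissue and from 230 to 659 CPM in KO tissue, and for H2-K1 from 31.2 to 138 and from 34.3 to 174 CPM. Only H2-D1 was 1.5-fold lower, 1 of the 10 against 12% of all genes, and none was 1.5-fold higher, against 11.8%. The median log2 ratio of the 10 was -0.22, beside 0.04 over all genes, and another scaling (TMM) moves the median over all genes to -0.18. Its factors of 1.08 for KO and 0.927 for WT tissue lower every KO over WT ratio, those of H2-K1 and Nlrc5 included.

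In stroma all 10 ratios were above 1. H2-K1 stood at 177 CPM in WT and 590.3 CPM in KO stroma, a ratio of 3.34 (3.18 to 3.51), Nlrc5 at 42.1 and 97.8 CPM, 2.32 (2.07 to 2.60), and Psmb9 at 50.9 and 95.2 CPM, 1.87 (1.67 to 2.09). KO quadrants of stroma ran from 281 to 659 CPM for H2-K1 and WT quadrants from 104 to 190.4 CPM, so for this gene the quadrants did not overlap. Psmb8 per UMI of Psmb5, the proteasome subunit it replaces, did overlap. It ran from 0.629 to 1.93 in KO and from 0.553 to 0.964 in WT quadrants of stroma. In stroma 7 of the 10 genes were at least 1.5-fold higher in KO tissue, against 9.56% of all genes.

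The stroma of the sections was not alike. In sum, fibroblast and matrix genes stood at 58869 CPM in WT and 19748 CPM in KO stroma, macrophage genes at 4230 and 7333 CPM, and T cell genes at 86.9 and 599 CPM. Their part in the stroma ratios was not tested. In macrophage-rich spots H2-K1, Tap1 and Nlrc5 were 1.5-fold higher in KO tissue, 3 of the 10 against 9.31%, with ratios from 1.57 to 1.87.

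In melanoma-dense spots the genes split. H2-K1, Tap1, Psmb8, Psmb9 and Nlrc5 had KO over WT ratios from 1.204 to 1.35, while H2-D1, B2m, Tap2, Tapbp and Psme1 had ratios from 0.656 to 0.962. None of the 10 was 1.5-fold higher, against 6.62% of all genes, and H2-D1 was 1.5-fold lower, against 6.07%. TMM scaling, with factors of 1.08 for KO and 0.925 for WT tissue, lowers all 10 of these ratios. Over 8 alternative settings the median log2 ratio of the 10 ran from -0.21 to 0.53. Within 4 steps of an edge, a setting chosen after the data were seen, 5 of the 10 were 1.5-fold higher, against 4.64% of all genes, from 1.65 for H2-K1 to 2.099 for Nlrc5. At 8 steps or more Nlrc5 was at 1.31 and H2-D1 at 0.458. The macrophage genes, at 413 CPM in WT and 265 CPM in KO melanoma-dense spots, and T cell genes, at 12.2 and 37.8 CPM, differed in opposite directions there. In the spots of no class 1 of the 10 was 1.5-fold lower in the KO section (Tapbp, 0.664), against 4.21% of all genes, and none higher, against 6.44%.

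The rest of the pathway was read from lists that hold none of the 10 genes. The proteasome offered a direct contrast, because each immunoproteasome subunit replaces a constitutive one. Psmb8 replaces Psmb5, and per UMI of Psmb5 there were 0.061 UMIs of Psmb8 in WT melanoma-dense spots and 0.844 in WT stroma, and 0.081 and 1.34 in KO tissue. Psmb9 replaces Psmb6, and their ratio went from 0.035 to 0.222 and from 0.048 to 0.367. Along the KO depth bands Psmb8 over Psmb5 went from 0.368 at the edge to 0.050 in the core, and in WT tissue from 0.273 to 0.148. The other pairs differed less. Psmb9 over Psmb6 went from 0.145 to 0.033 in KO and from 0.095 to 0.072 in WT tissue. Psmb10 replaces Psmb7, and their ratio went from 0.227 to 0.091 in KO tissue and from 0.175 up to 0.189 in WT tissue. For both of these pairs the WT edge and core intervals overlapped. These are UMI ratios of different probes, so only their change between spots is informative.

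The constitutive subunits differed less. Of the 7 constitutive proteasome genes measured, none reached 1.5-fold in any of the 15 comparisons between groups of spots or sections. Among the other inducible subunits, Psmb10, the third catalytic subunit of the immunoproteasome, was 1.57-fold (1.39 to 1.76) higher in WT and 1.502-fold (1.40 to 1.61) higher in KO T cell spots, and 1.75-fold (1.56 to 1.97) higher at the edge of KO melanoma-dense spots, against 0.828 (0.730 to 0.941) in WT tissue. Psme2, the beta subunit of PA28, had ratios of 1.03 and 1.09 in T cell spots and 0.88 at the KO edge, against 0.782 (0.526 to 1.18) at the WT edge of melanoma-dense spots.

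Of the 7 peptide loading and trimming genes, the chaperones Calr and Canx and the disulfide isomerase Pdia3 stayed under 1.5-fold between T cell spots and the rest in both sections. Tapbpl, a relative of tapasin, was 1.90-fold (1.27 to 2.79) higher in WT and 1.44-fold (1.13 to 1.83) higher in KO T cell spots. Erap1, which trims peptides, had ratios of 1.26 (1.09 to 1.45) and 1.29 (1.19 to 1.39).

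Among the other class I heavy chains 3 of 5 with enough counts in WT tissue were at least 1.5-fold higher in T cell spots. In KO tissue 4 of 7 were, and the shares over all genes were 2.9% in WT and 3.2% in KO tissue. H2-T23, which encodes the nonclassical molecule Qa-1, stood at 12.04 and 23.3 CPM in WT melanoma-dense spots without and with T cells, and at 8.94 and 18.5 CPM in KO tissue, ratios of 1.94 (1.54 to 2.41) and 2.07 (1.78 to 2.40). At the edge of KO melanoma-dense spots it was 3.24-fold (2.504 to 4.201) higher. At the edge of WT melanoma-dense spots 2 of the 3 heavy chains with enough counts had ratios below 1, and H2-Q7 was at 0.552 (0.387 to 0.793). In stroma 7 of 7 heavy chains with enough counts were at least 1.5-fold higher than in melanoma-dense spots in both sections. Over all genes that share was 22.4% in WT tissue and 21.6% in KO tissue.

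Over whole sections 2 of 8 other heavy chains were at least 1.5-fold higher and 2 lower in KO tissue. Over all genes the shares were 11.8% higher and 12% lower. H2-Q6 stood at 10.8 CPM in WT tissue and 29.3 CPM in KO tissue, a ratio of 2.73 (2.54 to 2.94), and H2-Q7 at 17.4 and 38.9 CPM, 2.24 (2.11 to 2.38). Both encode Qa-2 chains, and as near-identical genes they may share reads. Both were at least 1.5-fold higher in every class of spot, as none of the 10 genes was, with H2-Q6 at 4.21 (3.54 to 5.04) in melanoma-dense, 4.08 (2.94 to 5.78) in macrophage-rich, 5.77 (5.18 to 6.43) in stroma and 3.99 (3.37 to 4.75) in other spots. H2-T23 and H2-M3 went the other way over the whole section, at 0.599 (0.572 to 0.627) and 0.574 (0.518 to 0.636).

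Among the regulators, Irf1, an interferon-induced factor that acts on class I promoters, stood at 39.0 and 75.9 CPM in WT melanoma-dense spots without and with T cells and at 48.3 and 84.6 CPM in KO tissue. Its ratios were 1.95 (1.72 to 2.20) and 1.75 (1.64 to 1.87), close to those of Tap1 and Nlrc5. Ifng itself gave 54 UMIs in WT tissue and 91 in KO tissue, too few to follow by class. The MHC class II transactivator Ciita, a relative of NLRC5, had ratios of 1.87 (0.754 to 4.07) and 1.82 (1.29 to 2.55), on 8 T cell spot UMIs in the WT.

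Spot by spot, the 10 genes went with genes induced by interferon gamma. The correlation is Spearman's rho over 2671 WT and 2390 KO spots between a gene and the mean standardised level of 18 genes such as Gbp2, Cxcl9 and Irf8, and it is a description. Spots share a library, and depth and cell mixture differ between them. B2m had the highest rho of the 10, 0.68 in WT tissue and 0.70 in KO tissue, followed by H2-D1 at 0.59 and 0.63. Psme1 had the lowest, 0.33 and 0.29.

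A rho of at least 0.3 was reached by 10 of the 10 genes in WT tissue and 9 in KO tissue, against 2.83% and 4.4% of all genes. With the genes of the list left out, the highest rho of any gene was 0.681 and 0.701, which is that of B2m in both sections. Within melanoma-dense spots the rho of B2m was 0.63 and 0.57 and that of Tap1 0.33 and 0.41, and 6 of the 10 genes in WT tissue and 9 in KO tissue reached 0.3, against 0.453% and 1% of all genes. When each spot was summed with its neighbours, which lessens counting noise, Tap1 had 0.81 and 0.82 and all 10 passed in both sections, against 11.8% and 10.3% of all genes. Thinned to 5000 UMIs a spot, 4 passed in WT tissue and 7 in KO tissue, against 0.354% and 2.23%.

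The type I interferon list, with genes such as Ifit1, Oas2 and Irf7, went less closely with them. H2-D1 had a rho of 0.47 in WT tissue and 0.23 in KO tissue, H2-K1 0.34 and 0.20, and B2m 0.57 and 0.37. At least 0.3 was reached by 7 of the 10 genes in WT tissue, against 0.778% of all genes, and by 4 in KO tissue, against 0.39%. Interferon gamma gave the higher rho for each of the 10 genes in both sections, although many genes answer both interferons.

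Markers of cell types went with some of the 10 genes as closely. H2-D1 had a rho of 0.82 in WT tissue and 0.75 in KO tissue with macrophage genes and of 0.80 and 0.73 with fibroblast and matrix genes, above its rho with interferon gamma genes. H2-K1 and Psmb8 did the same in WT tissue, at 0.67 and 0.69 with macrophage genes against 0.47 and 0.50. Tap1, Tap2, Nlrc5, Psmb9 and Psme1 had their highest rho of the lists with interferon gamma genes in both sections. Against melanocytic genes H2-D1 had -0.71 and -0.45, and against housekeeping genes -0.40 and -0.30.

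**Figure D5:**
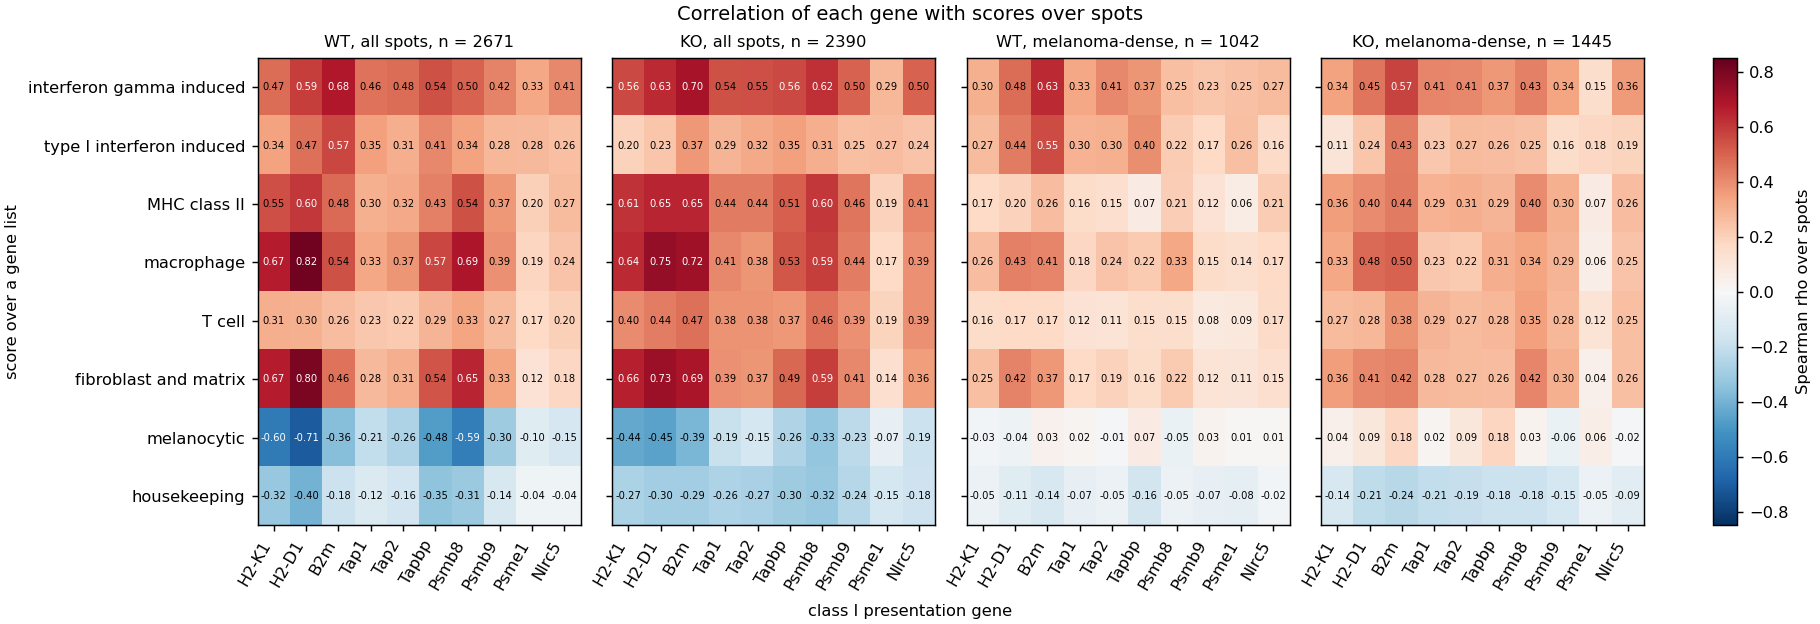
Spearman rho over spots between each gene (columns) and the mean standardised level of each gene list (rows), for all spots of the WT and KO sections at left and melanoma-dense spots at right, coloured from -0.85 to 0.85. B2m has the highest values in the interferon gamma row of all spots, 0.68 and 0.70, and the melanocytic row is negative for every gene over all spots.

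Among themselves the 45 pairs of the 10 genes had a median rho of 0.33 in WT tissue and 0.40 in KO tissue, from 0.17 to 0.69 and from 0.18 to 0.78. Summed with neighbours the medians were 0.69 and 0.72, and within melanoma-dense spots 0.20 and 0.25. Of 9810 other genes, those most like the mean of the 10 by the lower rho of both sections were Tmsb4x (0.78 in WT tissue and 0.79 in KO tissue), C1qa (0.73 and 0.73), Ly6e (0.74 and 0.71), C1qc (0.73 and 0.70), Ctss (0.71 and 0.70), Tagln2 (0.70 and 0.70), C1qb (0.70 and 0.69) and Ctsb (0.74 and 0.68). C1qa, C1qb and C1qc encode the complement component C1q and Ctss and Ctsb encode lysosomal proteases.

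The authors' deposited table gives Moran's I, a score of how far a gene's level clusters in space. Psmb8 had 0.445 in WT tissue and 0.496 in KO tissue and H2-K1 had 0.437 and 0.549, and in that table the median over all genes was 0.0614 and 0.0496. H2-K1 ranked 799 of 19296 genes in WT tissue and 156 of 19339 in KO tissue. B2m ranked 2693 in WT tissue and 410 in KO tissue, and Psme1 3349 and 3419 of the authors' deposited table.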

How the data were processed

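The files were 1 matrix of raw UMI counts per gene and spot for each section, which per the file headers the authors made with Space Ranger 2.1.0. The submitters' processing notes also name featureCounts and mm10, with no role given. The authors' deposited tables hold Moran's I, a score of spatial clustering for each gene. Grid positions (row, column and whether a spot lies under tissue) were used as deposited by the authors. The deposited p-values, signal column and images were not used.

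UMIs of a group of spots were summed and given as CPM, each gene over the total of its group. Groups were compared by the ratio of CPM with an exact (Clopper-Pearson, conditional binomial) 95% interval that covers counting error only. With 1 section per genotype no test was run, and a call is a ratio of at least 1.5. A gene was tested where both groups together held at least 100 UMIs. Quadrants give the spread inside a section and are not replicates. Correlations are Spearman's rho of log2 CPM over spots of at least 5000 UMIs.

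The genes named are the 10 genes, the genes of the other class I pathway lists, list genes named beside them as examples, and the 8 genes most like the mean of the 10 by the lower rho of both sections, among genes of at least 500 UMIs in each. The members and lists were chosen with earlier results of these data known. The genes H2-T10, Psmb1, Cxcl11, Tgtp1, Tgtp2, Isg15, Mx1 and Mx2 were not analysed here. Python 3.11.15 with numpy 2.4.6, scipy 1.17.1 and pandas 2.3.3 was used, and edgeR 4.0.16 in R 4.3.3 gave TMM factors as an alternative scaling. The scripts were tested on simulated data.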

Additional observations from a re-analysis of the deposited data

Results flagged for a closer look

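For 3 genes the edge and the core, pooled over each section, differed in opposite directions in the sections. The difference between the sections was not tested, since there was 1 section of each genotype. Over all spots the edge over core ratio of B2m was 0.906 in WT tissue and 1.94 in KO tissue. That of Psme1 was 0.898 in WT tissue and 1.21 in KO tissue. Among melanoma-dense spots H2-D1 had 0.835 against 1.96 and B2m 0.927 against 1.42. In each case the interval of every ratio lay on its own side of 1. The WT direction did not hold in the quadrant with 119 of the 131 WT core spots, where B2m was at 1.16 and Psme1 at 1.11 over all spots. Among melanoma-dense spots of that quadrant H2-D1 was at 1.35 and B2m at 1.54, and with melanoma-dense set at the top 25% of melanocytic shares they were at 1.09 and 1.11 in WT tissue. Macrophage genes ran the same way as H2-D1 and B2m among melanoma-dense spots, at 411 CPM at the edge and 465 CPM in the core of WT tissue and at 457 and 120.3 CPM in KO tissue, and their part was not tested.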

How the results depend on the processing

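Counts here are of the 10 genes at 1.5-fold. Between genotypes over whole sections 1 gene was lower. With TMM scaling 3 were, with equal weight per spot 0, and without the 50 most abundant genes 2. No share over all genes was computed for these 3 settings. With spots of at least 5000 UMIs 2 were lower, against 12.4% of all genes. With interior spots 5 were, against 14.2%, and all 10 ratios were below 1. TMM moved the median log2 ratio over all genes from 0.04 to -0.18. In melanoma-dense spots, where 0 were higher, 5 were at 1 to 4 steps from an edge, against 4.64% of all genes. For edge over core in WT tissue, where 2 were higher, 6 were with equal weight per spot, with no share over all genes computed. With the core from 8 steps 0 were, against 10.9% of all genes. Among WT melanoma-dense spots with a macrophage share below the median, 1 gene (Tap1) was lower at the edge, against 1.6% of all genes. Nlrc5 was higher there, at 2.37 on 12 core UMIs, against 1.77% of all genes. Among such KO spots, with the core also moved from 12 to 8 steps, 0 of the 8 remained, against 2.3% of all genes. There Tap2 (0.917), Psmb8 (0.493) and Psmb9 (0.549) turned below 1. For T cell spots in WT tissue, 5 became 2 with full counts, against 1.29% of all genes. With a low macrophage share 0 passed, against 1.47%, and H2-K1 was at 0.960. At 8 or more steps 1 passed, against 5.39%, with Psmb8 at 0.853 and Nlrc5 at 0.745. In KO tissue 6 became 0 with a low macrophage share, against 0.439% of all genes.

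For rho of at least 0.3 with interferon gamma genes, 10 in WT tissue became 4 after thinning to 5000 UMIs and 6 in melanoma-dense spots. The shares over all genes were 0.354% and 0.453%. With type I genes, 7 in WT tissue became 2 after thinning, against 0.541% of all genes, and 4 in melanoma-dense spots, against 0.492%. In KO tissue 4 became 7 with neighbours summed, against 1.16%, and 2 after thinning, against 0.4%. There 1 passed in melanoma-dense spots and 1 with spots of at least 20000 UMIs, against 0.33% each. The cause of these shifts was not tested, beyond that thinning leaves fewer UMIs. Settings by steps within melanoma-dense spots and with the core from 8 steps were added after the data were seen. So were those by macrophage share, except the low share in the T cell comparison, which was planned. Of 920 values of single genes under alternatives, 615 stayed within the main counting interval, 299 moved beyond it, and 6 turned from at least 1.5-fold to the other side of 1. Counting all genes, 36 of the 920 lay on the other side of 1. In the macrophage-rich comparisons 9 genes passed 1.5-fold under every alternative run in each section. In stroma 8 did in WT tissue and 9 in KO tissue. With stroma and macrophage limits at the top 10% of spots, 22.4% (WT) and 23.4% (KO) of all genes passed in macrophage-rich spots. In stroma 23.3% and 37.1% did. With a higher melanocytic limit the shares were 7.86% and 13.6% in macrophage-rich spots and 22.4% and 20% in stroma. No share over all genes was computed for the other alternatives of these comparisons. No paired analysis was possible because each genotype had 1 section.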
